A study of Mus musculus with 3 samples.

Results

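The regions described here are those that lie near 4 genes of the pluripotency network, Pou5f1, Nanog, Sox2 and Sall4. They come from a list of genomic regions recovered with Brachyury antibodies. The list was read as the regions common to both antibodies, as the way it was combined is not stated in the sources used here. A region was counted for a gene when its midpoint lay within 100 kb of the gene's transcription start position on the mouse build mm9. By this rule 4 of the 3160 regions in the list were members. Sall4 had 2, Nanog had 1, Sox2 had 1 and Pou5f1 had 0. Given the genes and the limit, the members were taken by position alone. The genes and the limit themselves were chosen with earlier results of these data known.

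Occupied DNA was recovered by ChIP-seq, in which chromatin is precipitated with an antibody and the bound DNA is sequenced. All 3 libraries came from mouse embryonic stem cells of the D3 line, whose strain of origin is labelled (C3H/HeH x 101/H)F1, turned into mesoendoderm in serum-free culture that depended on Activin A. For 2 libraries the antibodies were custom-made, each from its own rabbit, against Brachyury residues 249-436 fused to GST. The mock library was made with pre-immune IgG, and each group has 1 library. The list holds chromosome, start and end for the series as a whole. It holds no signal, score or value per library, so read depth is unknown, no replicate error can be given, and nothing below is a test between samples. Nothing in it allows the labelled cell type to be checked against marker genes, and all cells came from 1 line.

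Brachyury is the founding T-box transcription factor. It is switched on as pluripotent cells of the epiblast enter the primitive streak, and it is needed for posterior mesoderm and the notochord. Pou5f1 (which encodes OCT4), Nanog and Sox2 encode the core transcription factors of the pluripotent state, which occupy one another's regulatory DNA, and Sall4 encodes a zinc finger protein of the same network. Mesoendoderm forms as this network is being taken down. Sox2 goes on to serve neural progenitors, whereas Pou5f1 and Nanog stay on for a time in the primitive streak.

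The DNA just before the start of Nanog and of Sox2 is shown first, because these are the 2 genes with a region for which the promoter table used here holds a sequence. The sequences are the 250 bases before the start, from RefSeq on GRCm38.p6, plus strand, at chr6:122707239-122707488 for Nanog (the upstream one of 2 listed starts) and chr3:34649745-34649994 for Sox2. These positions are on another build than the regions and cannot be set beside them. Capitals mark the octamer core ATGCAAA, the OCT4 recognition element, on either strand, and the Sox core CATTGT on either strand.
Nanog: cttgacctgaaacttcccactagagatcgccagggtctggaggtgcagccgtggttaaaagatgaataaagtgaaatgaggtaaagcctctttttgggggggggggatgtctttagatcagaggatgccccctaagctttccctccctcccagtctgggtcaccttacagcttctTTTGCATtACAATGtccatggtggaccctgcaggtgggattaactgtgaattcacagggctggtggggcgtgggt
Sox2: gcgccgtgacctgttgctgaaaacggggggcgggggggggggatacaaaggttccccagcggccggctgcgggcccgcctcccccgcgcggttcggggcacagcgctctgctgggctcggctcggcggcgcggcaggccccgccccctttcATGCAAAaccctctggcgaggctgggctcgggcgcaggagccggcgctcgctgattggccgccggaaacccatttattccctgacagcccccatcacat

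In the Nanog sequence the reverse complements of the octamer core and the Sox core begin 75 and 67 bases before the start, with a single base between them. This is the composite element at which OCT4 and SOX2 bind together. The Sox2 sequence has the octamer core 99 bases before the start and no match to the letters CATTGT on either strand. Other forms of the Sox site were not searched. The T-box core GGTGTGA, the recognition sequence of Brachyury and its relatives, occurred on either strand in 0 of the 5 promoter windows listed for the members (2 for Pou5f1, 2 for Nanog and 1 for Sox2; each runs from 250 bases before to 50 after the start). Of all 32851 promoter windows in the table, 3.98% held it. The octamer core was in 3 of the 5 windows against 4.63% of all windows, and the Sox core was also in 3 of 5 against 12.6%. The 2 Nanog windows overlap and share their matches, so they are not separate cases. These counts describe only the letters in the windows. The listed regions near Nanog and Sox2, described next, do not reach the starts.

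Nanog had a single wide region on the side before its start. It ran from 122652150 to 122653577 on chromosome 6 (mm9) and measured 1428 bp, against a median of 850 bp for the whole list. Its midpoint lay 7.14 kb below the start position of 122.66 Mb, and its nearer edge lay 6.42 kb away. Start positions are known to 2 decimals of a Mb here, so each distance carries a rounding error of up to 5 kb, and the midpoint was between 2.14 and 12.1 kb from the start. Nanog lies on the plus strand in RefSeq, so this is upstream of the gene. Counted from the widest, the region ranked 144 of 3160 in the list (95.4% of regions were narrower) and 5 of 154 on chromosome 6.

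The region was the only one within 100 kb of Nanog. Its nearest listed neighbours were 216 kb away on the low side and 124 kb away on the high side, midpoint to midpoint. In the whole list, 48.2% of regions had a closer neighbour. Between distances of 100 and 200 kb from the start there were 2 more, at 117 kb (719 bp wide, the nearest outside the limit) and 165 kb (872 bp), both on the high side. On the low side the nearest outside was at 224 kb and measured 792 bp. Within 500 kb of the start, a limit added after seeing the data, there were 6 regions in all. The median was 1 at 709 shifted positions on chromosome 6 (steps of 200 kb, so these windows overlap). In the RefSeq gene order the low side of Nanog is occupied by Dppa3, which encodes a maternal and germline chromatin factor, and then Gdf3, a ligand of the Nodal type, and the high side by Slc2a3, a glucose transporter. Which of these genes the regions lie nearest to was not analysed here, because no mm9 annotation was used.

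Sall4 had a pair of regions within 100 kb, where the other genes had 1 or 0; within 200 kb Nanog had 3 and Sall4 still 2. The first ran from 168591401 to 168592733 on chromosome 2 and measured 1333 bp, wider than 93.3% of the list (rank 211 of 3160, and 17 of 269 on chromosome 2). Its midpoint was 2.07 kb above the start position of 168.59 Mb, which is less than the rounding error. The midpoint was therefore within 7.07 kb of the start, but whether the region covered the start, or on which side of it the midpoint was, cannot be told. No promoter window for Sall4 was used.

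The other Sall4 region ran from 168566955 to 168567485, 22.8 kb below the start position (17.8 to 27.8 kb with rounding), on the side of the neighbouring gene Atp9a, a phospholipid-transporting ATPase. It measured 531 bp, and only 7.12% of the list was narrower. The midpoints of the pair were 24.8 kb apart. Among all adjacent pairs in the list, 280 of 3140 (8.92%) lay within 25 kb, a limit just above the distance of this pair. Counted by region, 16.1% of the list had a closer neighbour than these 2 had. Beyond the pair, the nearest region on the low side was at 550 kb (1034 bp wide). On the high side, where Zfp64 is the next protein-coding gene in the RefSeq order, it was at 1367 kb (1377 bp wide). The pair was thus the whole content of the list within 500 kb of Sall4.

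The region at Sox2 was one of the narrowest in the list. It ran from 34563608 to 34563653 on chromosome 3, a length of 46 bp, and ranked 3150 of 3160 from the widest. On chromosome 3, 1 region of 162 was narrower. Its midpoint was 13.6 kb above the start position of 34.55 Mb (8.63 to 18.6 kb with rounding), which is downstream, as Sox2 is on the plus strand in RefSeq. In the whole list 20 regions were under 100 bp, with a median of 45.5 bp. Of these, 12 had another region less than 1 kb away, against 141 of the 3140 wider ones (4.49%). The Sox2 region was among the 8 without such a neighbour. Its nearest listed neighbours were 509 kb away on the low side and 1268 kb on the high side, and 84.8% of the regions in the list had a closer one. The nearest regions outside the limit, at 496 kb and 1282 kb from the start, measured 982 and 962 bp. The 46 bp span of the Sox2 region is shorter than the fragments that sonication usually gives. How the list was combined from the libraries is not stated in these sources, and whether this entry is the shared edge of broader peaks was not tested.

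**Figure D1:**
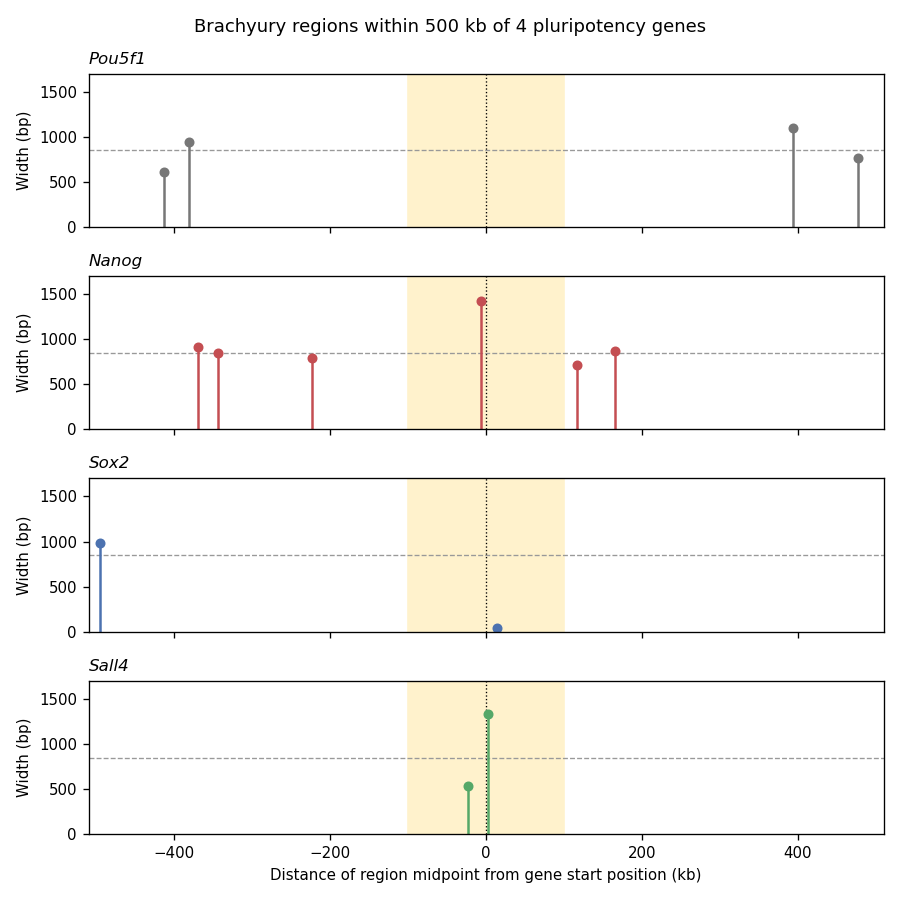
Regions within 500 kb of each gene, by distance of the midpoint from the gene's start position (horizontal, kb, higher coordinates to the right) and width (vertical, bp); the shaded band is the 100 kb limit, the dotted line the start position and the dashed line the list's median width of 850 bp. Nanog and Sall4 each have a region of over 1300 bp close to the start, Sox2 a 46 bp entry, and Pou5f1 nothing within the band.

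Pou5f1 had no region within 100 kb of its start position, 35.64 Mb on chromosome 17. The nearest region, from 35257839 to 35258784 (946 bp), was 382 kb below the start, and the nearest on the other side, from 36033550 to 36034643 (1094 bp), was 394 kb above it. The gene thus sat near the middle of a stretch of 0.776 Mb between adjacent midpoints. Such a stretch is not rare on this chromosome. It ranked 34 of 151 by length there, where the median was 0.289 Mb. Pou5f1 lies in the major histocompatibility complex, with class I genes such as H2-Q10 on its low side and Tcf19, a cell cycle gene, on its high side in the RefSeq order. Within 1 Mb of the start, a limit added after seeing the data, there were 10 regions. The median was 3 at 429 shifted positions on chromosome 17 (steps of 200 kb, so these windows overlap). By that count the empty stretch lay in a part of the chromosome where the list is dense. Because the list has no signal, a Pou5f1 site bound below the threshold, or found with only one of the antibodies, cannot be told apart from an unbound one.

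The 4 member regions fell into wide and narrow ones. The Nanog region and the nearer Sall4 region were 1.68 and 1.57 times the list's median width, and both were among the 232 regions (7.34% of the list) wider than 1300 bp. That limit lies just under the width of the nearer Sall4 region. The lower Sall4 region was 0.625 times the median and the Sox2 region 0.0541 times. The midpoints of the wide ones lay 7.14 and 2.07 kb from a start position and those of the narrow ones 13.6 and 22.8 kb. With the rounding error, the ranges of the Nanog region (2.14 to 12.1 kb) and the Sox2 region (8.63 to 18.6 kb) overlap, so their order by distance cannot be told.

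**Figure D2:**
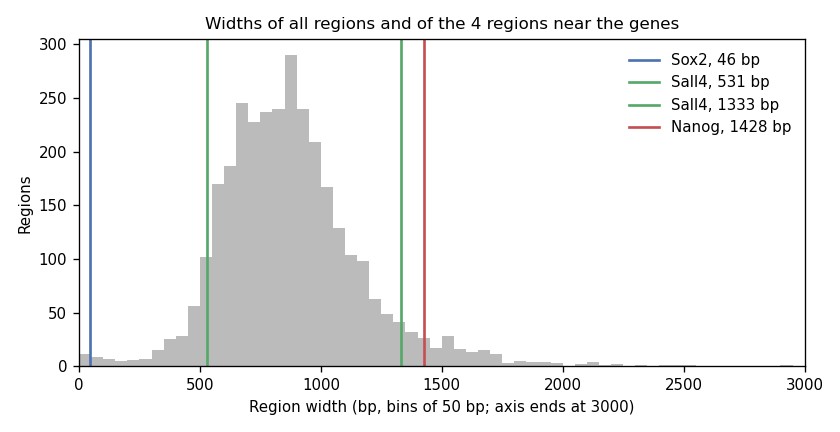
Number of regions by width (horizontal, bp, in bins of 50 bp; vertical, regions) for the whole list, with coloured lines at the widths of the 4 regions near the genes. The regions of 1428 and 1333 bp are on the right shoulder, that of 531 bp on the left shoulder and that of 46 bp at the far left.

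To see how often a place on the same chromosome holds a region, the 200 kb window around each gene was shifted in whole steps of 200 kb between the outermost listed regions of its chromosome. Shifted windows were not matched for gene content, so they include stretches with few genes. At least 1 region was found in 16.0% of the 721 shifted windows on chromosome 6, beside the 1 region at Nanog, and in 16.1% of the 769 on chromosome 3, beside the 1 at Sox2. On chromosome 2 the share was 20.8% of 888, and 5.74% held 2 or more, as Sall4 did. On chromosome 17 it was 24.6% of 456, so that 75.4% of windows were empty, as was that of Pou5f1. Summed over the 4 chromosomes these shares come to 0.775 genes with a region, where 3 had one. The mean counts come to 1.04 regions, where there were 4. The observed numbers include the 46 bp entry at Sox2 and the 531 bp region at Sall4. Counting only regions as wide as the list's median or wider, 2 genes had 1 region each, where the shares come to 0.414 genes and the mean counts to 0.518 regions. The genes were named with results of these data known, so no test was made of this difference.

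**Figure D3:**
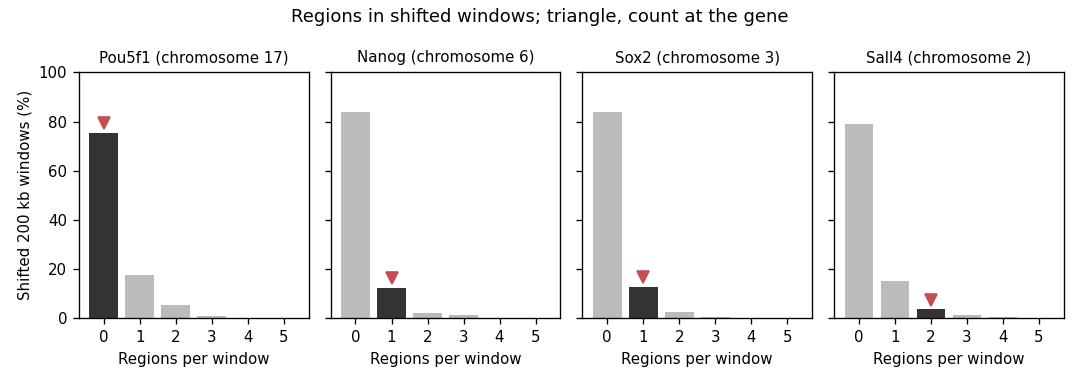
Share of shifted 200 kb windows (vertical, %) by the number of regions they hold (horizontal), with 1 panel per gene and chromosome; the dark bar and triangle mark the count at the gene itself. Empty windows are the most common on every one of the 4 chromosomes, and Pou5f1 alone falls among them.

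Closer to the genes, shifted windows held a region more often than over the whole chromosome at Pou5f1, Nanog and Sall4, and about as often at Sox2. Among the 100 shifted windows within 10 Mb of each gene, the share with a region was 36% around Pou5f1, 25% around Nanog, 17% around Sox2 and 26% around Sall4. Windows with at least 2 regions made up 6% of those around Sall4. Summed over the genes, these nearby windows come to 1.04 genes with a region and 1.45 regions, beside the observed 3 and 4. Pou5f1 was thus empty in the surroundings with the largest share of windows that hold a region.

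In distance to the nearest region, Sall4, Nanog and Sox2 stood at the near end of the shifted positions and Pou5f1 did not. The genes are measured from transcription starts, whereas the shifted positions were not matched to such starts. The genes were also named with results of these data known, so the shares below are a description and not a test. At the shifted positions the median distance to the nearest midpoint was 450 kb on chromosome 6, 524 kb on chromosome 3, 338 kb on chromosome 2 and 278 kb on chromosome 17. A region as near as that of Sall4 was found at 2 of 888 shifted positions (0.225%), and at 17 (1.91%) when the distance was lengthened by the rounding error. For Nanog the count was 15 of 721 (2.08%), or 21 (2.91%) with the rounding error. For Sox2 it was 19 of 769 (2.47%), or 28 (3.64%), with the reservation that its region is the 46 bp entry. At Pou5f1 the nearest region was farther than the chromosome's median, and 263 of 456 positions (57.7%) had one at least as near. Among the 100 shifted positions within 10 Mb, the medians were shorter, at 234 kb around Nanog, 422 kb around Sox2, 227 kb around Sall4 and 151 kb around Pou5f1. A region as near as the gene's own was then found at 3 positions for Nanog, 2 for Sox2, 0 for Sall4 and 73 for Pou5f1. With the rounding error these numbers were 4, 2, 2 and 73.

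**Figure D4:**
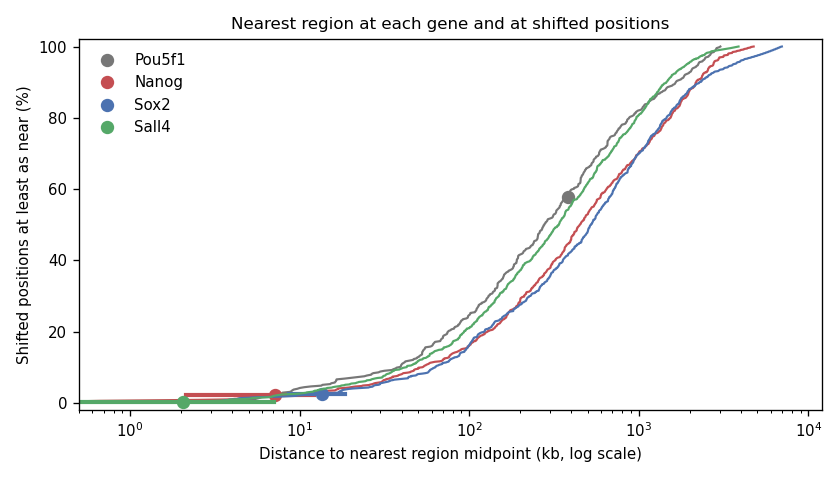
Cumulative share of shifted positions (vertical, %) whose nearest region midpoint lies within the distance on the horizontal axis (kb, log scale), 1 line per gene's chromosome; points mark the gene's own distance and bars its rounding error of 5 kb (the bar of Sall4 runs to the axis edge, as its error includes 0). Sall4, Nanog and Sox2 sit at the lower left, below 4%, and Pou5f1 beyond the middle of its line. The genes were named with results of these data known, so the shares are not a test.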

How the data were processed

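The deposited list gives region positions in base pairs (chromosome, start, end) with no header. The submitters' processing notes name Bowtie, MACS2 and mm9, without version, role or setting. The way the authors combined the antibodies' libraries, any threshold and the part played by the mock were not given in the sources used here. It was read as regions common to both antibodies. Starts were raised by 1, so positions count from 1.

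Start positions were taken on mm9 in Mb to 2 decimals, and were not checked against an mm9 annotation. RefSeq tables on GRCm38.p6 gave gene order, strand and promoter sequence only; 3 of the 4 genes matched a promoter window. All 4 genes and every region within 100 kb were named, with the nearest region outside on each side and neighbouring protein-coding genes. The genes and the limit were chosen with earlier results of these data known. Counts, distances, widths and shifted windows were computed in Python 3.11.15 (pandas 2.3.3, numpy 2.4.6), with plots from matplotlib 3.10.9. The window count was tested on simulated data. No test between samples was possible, and no p-value is given. Other pluripotency genes were not analysed here.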

Additional observations from a re-analysis of the deposited data

How the results depend on the processing

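Of 62 recomputed values, 48 stayed within 1.5 times (counts), the rounding error of 5 kb (distances), the Wilson 95% interval (window shares) or the same value (widths, motifs), and 14 moved. Some of the 48 could not have moved. The members' closest listed neighbour was 24.8 kb away, so merging gaps under 1 kb could not change them. Nor could a region's edge differ from its midpoint by as much as 5 kb. All 4 regions and 3 genes remained in number with a limit of 50 kb. They also remained with neighbours under 1 kb merged, with any overlapping base counted and with start positions moved by 5 kb. Counting any base or moving the starts could not have changed these numbers either. The members lay within 22.8 kb of a start position, and the nearest region outside the limit was at 117 kb. With a limit of 200 kb, Nanog had 3 regions and Pou5f1 still had 0. Limits added after seeing the data gave, at 500 kb, 4 regions at Pou5f1, 6 at Nanog and 2 at Sox2. The medians of shifted windows with that limit were 1, 1 and 0. At 1 Mb the counts were 10, 6 and 2, with 4 at Sall4, against shifted medians of 3, 1, 1 and 2. With only the 1582 regions as wide as the median or wider, Sox2 had 0, with the nearest at 496 kb, and Sall4 had 1, so 2 genes had a region. Shifted windows within 10 Mb held a region in 36%, 25% and 26% of cases at Pou5f1, Nanog and Sall4, above the chromosome-wide shares. These shares rest on 100 windows per gene, whose own error the interval leaves out. Whether they differ beyond that error was not tested, nor was any cause. No paired analysis was possible because single libraries make up the groups and have no values of their own in the list. Read depth is unknown, so sites missed for it could not be judged.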
